A study of Mus musculus with 12 samples.

Results

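The genes described here encode collagens, laminins and their partners in basement membrane, matricellular proteins, and the proteases and inhibitors that remodel matrix. They are 35 genes, chosen by name from the 13318 genes that carried a value in the RNA tables of this series, and all 35 were listed in at least 1 library. They fall into 4 classes: 8 genes of fibrillar and type VI collagens, 12 of basement membrane, 8 of matricellular and adhesive proteins, and 7 of proteases and their inhibitors. RNA came from cumulus cells of Kunming mice, the somatic cells around the oocyte, which the labels also class as granulosa cells from antral follicles. One group of 3 libraries had received follicle-stimulating hormone (FSH) together with fetal bovine serum (FBS) over 18 hours, and the other group of 3 was labelled untreated. The labels give no culture time for the untreated cells and do not say whether their oocytes were present, so FSH, serum, time in culture and the oocyte cannot be told apart. The series concerns expansion of the cumulus and death of its cells.

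A basement membrane is a thin sheet in which laminin heterotrimers and a collagen IV network are tied together by nidogens and by the heparan sulfate proteoglycans perlecan and agrin. In the ovarian follicle such a sheet encloses the granulosa layer, and granulosa cells themselves make several of its chains. Fibrillar collagens give stroma and theca their tensile strength, matricellular proteins tune how cells hold to matrix, and the balance of metalloproteinases and tissue inhibitors of metalloproteinases (TIMPs) sets how fast matrix is cut. During expansion, cumulus cells also lay down a separate matrix built on hyaluronan, to which heavy chains of the inter-alpha-trypsin inhibitor family are attached.

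Levels are given in FPKM, sequenced fragments scaled to transcript length and to library total, which is per length and so allows genes to be set beside each other. The depth of the libraries is unknown. A gene missing from a table is called unlisted and is not taken as 0. Libraries 1 and 2 of a group differed by more than 2-fold in 2.82% of tested genes with FSH and FBS and in 4.54% of them in untreated cells, against 15.9% to 22.9% for pairs that include library 3. They were therefore averaged and counted as 1 sample, and each group has n = 2. Tests are those of limma on log2(FPKM + 1), adjusted over 9022 genes, and a log2 fold change is FSH and FBS over untreated on that scale, which understates changes of low genes. Marker genes were checked beside the label. Of 9 granulosa markers 7 or 8 were listed per library, led by Inha at 276.1 to 502.5 FPKM, while Foxl2 was unlisted throughout. Of 12 theca and stroma markers 1 to 6 were listed per library, and their sums were 16.1 to 17.5 FPKM with FSH and FBS and 62.1 to 76.2 in untreated cells, led by Acta2. Insl3 and Lhcgr were each listed in 5 libraries, at up to 2.07 and 0.617 FPKM, Cyp17a1 in 1, at 0.032 FPKM, and Pdgfra, Tcf21, Lum and Myh11 in none. Summed oocyte markers stood at 26.5, 30.8 and 30.8 FPKM in untreated libraries and at 2.53, 3.12 and 21.5 with FSH and FBS, so library 3 of that group stood apart from the other two.

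Across the matrix genes 24 of 35 could be tested, and 4 were called higher and 2 lower after FSH and FBS. Over all 9022 genes 1.68% were called higher and 0.687% lower, or 2.37% in either direction. The list was chosen with earlier results of these data known, so these shares do not test matrix genes as a set. Of all calls 71.0% were higher, and 54.4% to 56.7% under 3 rescalings (equal sums, median of ratios, quantiles), which move the median of all genes to near 0. The 4 were Col18a1, Col6a3, Timp1 and Tnc, and the 2 were Smoc2 and Cnmd. The median log2 fold change of the 24 was 0.55, against 0.24 for all genes tested. That order turned with a minimum of 5 FPKM (0.21 against 0.27) and with first exon sums only (0.21 against 0.26). In 10 of the 24 all FSH and FBS libraries lay above all untreated ones, as did 29.4% of all genes, and in 5 they lay below, as did 9.54%. Calls on Col18a1, Col6a3, Smoc2 and Cnmd held in every alternative processing that tested them, and those on Timp1 and Tnc did not. Untreated means of Col18a1 and Col6a3, 0.626 and 0.179 FPKM, lay under the 1 FPKM minimum, which both genes met through the treated group. First exon sums only tested neither of them.

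**Figure D1:**
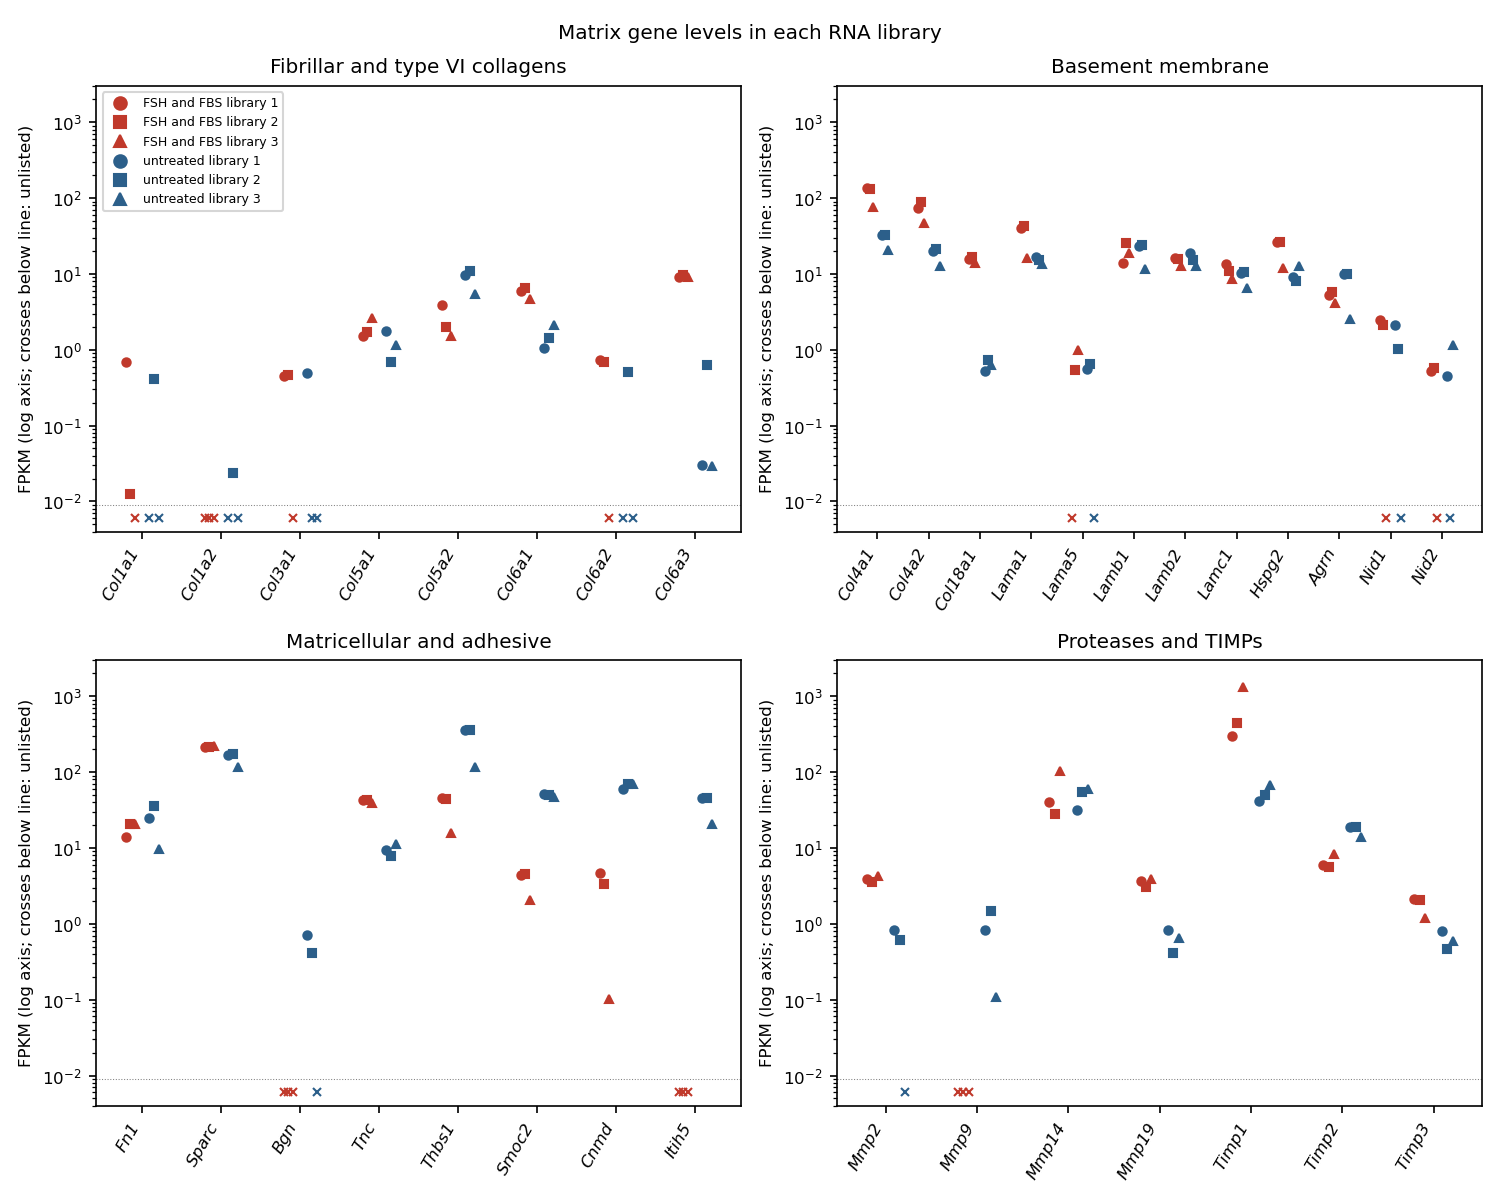
FPKM (log axis) of each matrix gene in each of the 6 RNA libraries, by class. Red marks are FSH and FBS, blue marks untreated, shapes are library numbers, and crosses under the dotted line are libraries in which the gene was unlisted. Col18a1, Col6a3, Timp1 and Tnc sit higher in red, Smoc2, Cnmd and Thbs1 higher in blue, and Itih5 has blue marks only.

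**Figure D2:**
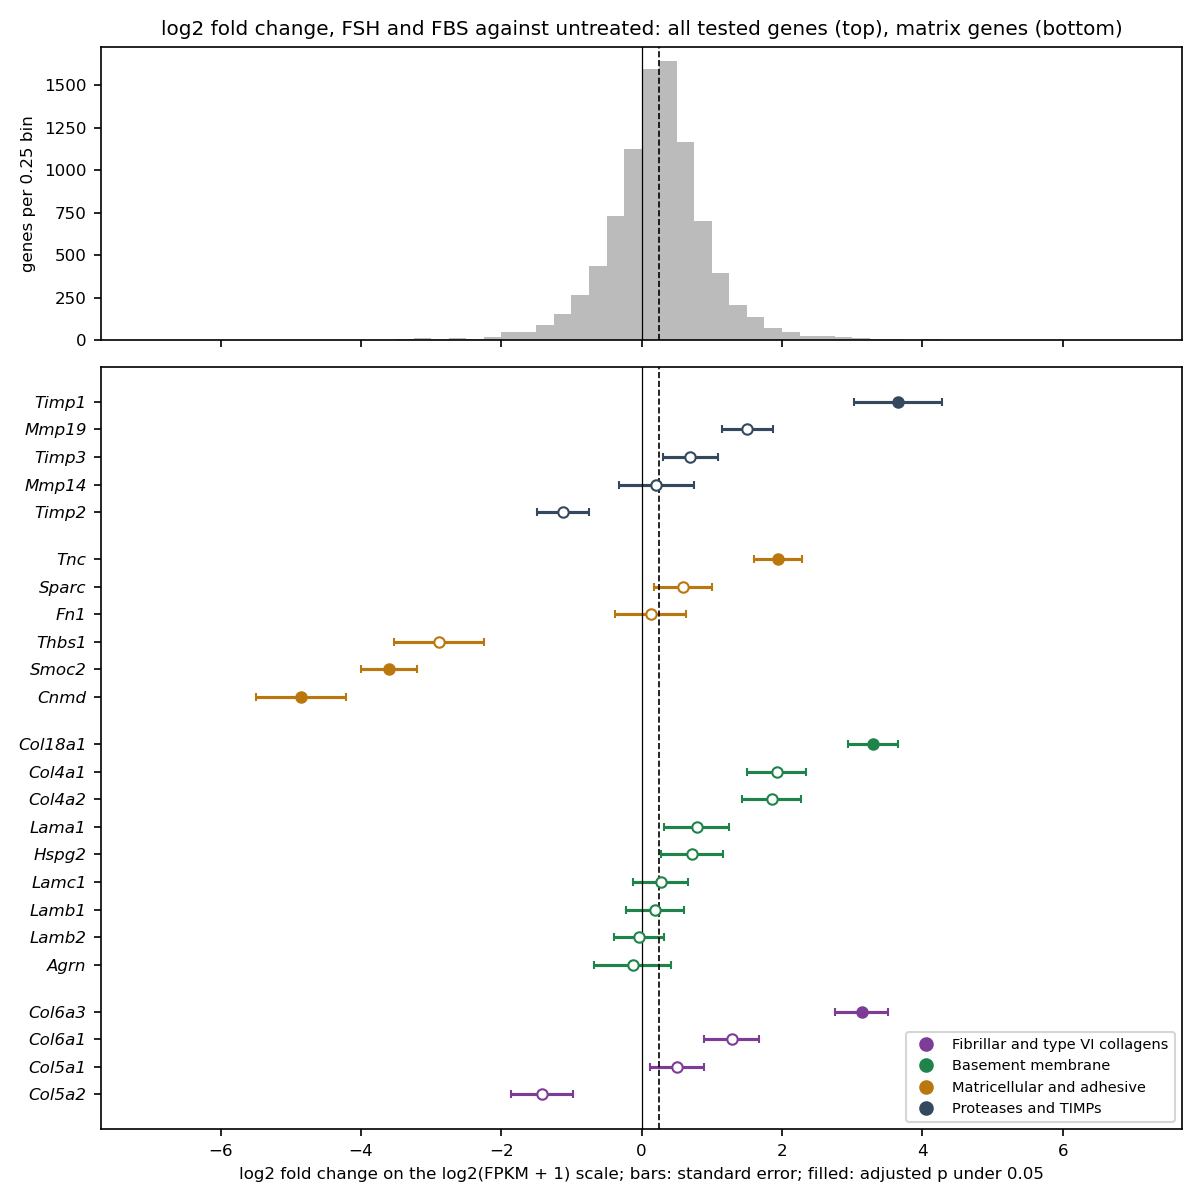
Top, number of tested genes per bin of log2 fold change. Bottom, log2 fold change of the 24 tested matrix genes with standard errors, filled where the adjusted p is under 0.05; the dashed line is the median of all genes, 0.24. The 6 filled points are Timp1, Tnc, Col18a1 and Col6a3 on the right and Smoc2 and Cnmd on the left.

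The genes of the common fibrillar collagens were at the floor of these tables. Col1a1, the alpha 1 chain of type I collagen, was listed in 3 of 6 libraries and reached at most 0.679 FPKM. Col1a2, its partner chain, was listed in untreated library 2 alone, at 0.023 FPKM. Col3a1, the type III chain, was listed in 3 libraries between 0.448 and 0.494 FPKM. The small leucine-rich proteoglycan gene Bgn, whose product binds type I fibrils, appeared in 2 untreated libraries only, at 0.713 and 0.416 FPKM.

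Type V collagen nucleates fibrils, and both of its chains studied here were listed in all 6 libraries. Col5a1 stood at 1.5, 1.74 and 2.65 FPKM with FSH and FBS and at 1.75, 0.680 and 1.16 in untreated cells, and the groups overlapped. Col5a2 stood at 3.88, 1.99 and 1.54 against 9.65, 10.9 and 5.36 FPKM. All 3 treated libraries lay below all untreated ones, with a log2 fold change of -1.42 (SE 0.44) that did not pass (limma adjusted p = 0.17). No first exon of Col5a2 was listed, so these are last exon sums. An internal last exon, chr1:45414199-45414801, held 1.93 of the 3.88 FPKM in treated library 1 and was unlisted elsewhere. The distal last exon stood at 1.80, 1.41 and 1.47 against 9.51, 10.7 and 5.26 FPKM. The 2 chains of the same heterotrimer thus had fold changes of opposite sign, and that difference between genes was not tested.

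Type VI collagen forms beaded filaments from an alpha 1, an alpha 2 and a longer alpha 3 chain. Col6a3, the long chain, was at 9.20, 9.76 and 9.11 FPKM with FSH and FBS and at 0.030, 0.629 and 0.029 in untreated cells. It rose, from 0.179 ± 0.212 to 9.29 ± 0.264 FPKM (SD, n = 2), with a log2 fold change of 3.14 (SE 0.38, limma adjusted p = 0.0086). In untreated libraries 1 and 3 that value rests on a short internal last exon alone, at 0.030 and 0.029 FPKM, a form also listed at 0.019 to 0.027 FPKM in the treated libraries. Without that form the gene would be unlisted there and outside the test and its alternatives. A first exon was listed in treated libraries 1 and 2 only, at 0.802 and 0.990 FPKM, so the values are last exon sums. The distal last exon of the gene, at chr1:90766860-90767605, was listed at 7.40, 8.98 and 9.09 FPKM in treated libraries and at 0.487 in untreated library 2 only. Col6a1 stood at 6.02, 6.42 and 4.72 FPKM against 1.06, 1.43 and 2.12, without overlap, and did not pass (log2 fold change 1.28, SE 0.39, limma adjusted p = 0.16). Col6a2 was listed in 3 libraries, at 0.742 and 0.681 FPKM with FSH and FBS and at 0.506 in untreated cells. By FPKM the alpha 2 chain was thus far below the other two chains in treated cells.

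The collagen IV genes and Col18a1 were the basement membrane members that stood apart between groups. Col4a1 and Col4a2 encode the chains of the widespread collagen IV network and lie head to head on chromosome 8, on opposite strands. Their promoter windows are shown because the levels of the pair kept a near constant ratio, given below with their values. Each runs from 250 bases before to 50 bases after the RefSeq start (GRCm38.p6), chr8:11312777-11313076 on the minus strand and chr8:11312555-11312854 on the plus strand, and they share 78 bases. Capitals mark matches, on either strand, to GGGCGG, the core of the Sp1 site, or to CCAAT.

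Col4a1: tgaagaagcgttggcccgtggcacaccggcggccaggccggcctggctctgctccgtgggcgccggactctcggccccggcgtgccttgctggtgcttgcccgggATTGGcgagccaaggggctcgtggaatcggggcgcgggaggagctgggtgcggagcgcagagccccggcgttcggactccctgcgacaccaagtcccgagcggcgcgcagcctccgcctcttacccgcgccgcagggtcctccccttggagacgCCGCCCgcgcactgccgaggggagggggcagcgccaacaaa

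Col4a2: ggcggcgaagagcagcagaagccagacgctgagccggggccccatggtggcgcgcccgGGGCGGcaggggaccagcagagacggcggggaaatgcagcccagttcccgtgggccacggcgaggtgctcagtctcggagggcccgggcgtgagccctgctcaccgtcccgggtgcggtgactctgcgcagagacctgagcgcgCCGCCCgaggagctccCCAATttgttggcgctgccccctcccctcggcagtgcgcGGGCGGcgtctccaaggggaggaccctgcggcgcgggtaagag

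Col4a1 was at 135.7, 133.3 and 77.1 FPKM with FSH and FBS and at 32.6, 32.3 and 20.9 in untreated cells. Col4a2 was at 74.5, 87.7 and 46.2 FPKM against 20.1, 21.0 and 12.8. For both genes every treated library lay above every untreated one, and library 3 was the lowest of its group. Log2 fold changes were 1.93 (SE 0.42) and 1.85 (SE 0.42), and neither passed (limma adjusted p = 0.062 and 0.068). Leaving out FSH and FBS library 3 took the log2 fold changes to 2.32 and 2.25. Leaving out untreated library 3 took them to 1.62 and 1.53. Either omission leaves 1 sample in a group, without a spread of its own, so only effect sizes are given. The ratio of Col4a1 to Col4a2 FPKM stayed between 1.52 and 1.82 across the 6 libraries. In the network the alpha 1 and alpha 2 chains are combined in a heterotrimer with more alpha 1 than alpha 2.

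Col18a1 encodes collagen XVIII, a basement membrane collagen whose cleaved end is the angiogenesis inhibitor endostatin. It rose from 0.532, 0.733 and 0.620 FPKM in untreated libraries to 15.6, 16.8 and 13.9 with FSH and FBS. Group means were 0.626 ± 0.0090 and 15.0 ± 1.67 FPKM (SD, n = 2), and the log2 fold change was 3.30 (SE 0.36, limma adjusted p = 0.0062). Of 2 first exons listed, the one at chr10:77166439-77166548 carried nearly all of the signal, at 15.4, 16.8 and 13.9 FPKM in treated libraries. The RefSeq window at that start, chr10:77166481-77166780 on the minus strand of GRCm38.p6, holds 3 matches to GGGCGG and 1 to CCAAT, in capitals.

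Col18a1: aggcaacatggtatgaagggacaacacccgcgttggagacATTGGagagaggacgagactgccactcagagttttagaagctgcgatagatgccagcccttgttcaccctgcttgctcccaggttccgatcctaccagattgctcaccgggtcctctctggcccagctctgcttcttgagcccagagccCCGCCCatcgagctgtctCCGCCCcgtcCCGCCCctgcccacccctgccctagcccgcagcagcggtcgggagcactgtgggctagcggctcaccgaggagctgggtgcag

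No laminin gene passed the test. Lama1, the alpha chain of laminin 111, was at 39.9, 42.2 and 16.3 FPKM against 16.6, 15.2 and 13.5. Libraries 1 and 2 with FSH and FBS were high, library 3 lay within the untreated range, and the log2 fold change of 0.78 (SE 0.46) did not pass (limma adjusted p = 0.45). The beta and gamma chains overlapped between groups, Lamb1 at 13.8 to 25.5 against 11.7 to 23.9 FPKM, Lamb2 at 12.9 to 16.1 against 12.8 to 19.0, and Lamc1 at 8.49 to 13.5 against 6.54 to 10.7. Lama5, the alpha chain typical of many mature basement membranes, was listed in 4 libraries at 0.535 to 1.01 FPKM. By FPKM, Lama1 was therefore the leading laminin alpha chain of the 2 studied here.

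Among the linkers, Hspg2, which encodes perlecan, was at 26.1, 26.0 and 12.03 FPKM against 8.99, 7.97 and 12.7. As for Lama1, treated libraries 1 and 2 were high and treated library 3 lay among the untreated ones (log2 fold change 0.72, SE 0.45, limma adjusted p = 0.47). Agrn, encoding agrin, was at 4.07 to 5.68 FPKM against 2.54 to 10.1 and overlapped. The nidogen genes were low and partly unlisted, Nid1 at 1.02 to 2.50 FPKM in 4 libraries and Nid2 at 0.448 to 1.14 in 4. The high values of Lama1 and Hspg2 fell in the 2 treated libraries with low oocyte marker sums, and the part of that in these results was not tested.

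Matricellular and adhesive genes split, with 1 of 6 tested called higher and 2 lower. Tnc encodes tenascin C, a hexameric glycoprotein induced in remodelling tissue. It rose from 9.37, 7.86 and 11.4 FPKM in untreated libraries to 43.5, 42.4 and 38.9, with means of 9.98 ± 1.93 and 40.9 ± 2.86 FPKM (SD, n = 2). On the log2 scale the change was 1.94 (SE 0.35, limma adjusted p = 0.030). The call was lost under each of 3 rescalings (limma adjusted p = 0.089 to 0.12), with first exon sums only (0.071) and without untreated library 3 (0.10), with the log2 fold change at 1.66 to 2.31. A non-coding gene, 8030451A03Rik, overlaps Tnc on the opposite strand, and its end exons reached at most 8.60 FPKM.

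The ends and exons of Tnc transcripts varied between libraries. With FSH and FBS 2 first exons were listed, at chr4:64046749-64047015 and chr4:64020144-64020725. The first stood at 43.3, 20.5 and 13.5 FPKM and the second at 0.205, 21.9 and 23.6, so library 1 used the upstream start almost alone. Both were listed in untreated library 1, at 4.32 and 3.91 FPKM. In untreated library 2 neither was listed, and in untreated library 3 they stood at 1.04 and 1.18 FPKM beside internal starts at 5.28 and 2.17. A variable 273-base exon lay at chr4:63984460-63984732, a size that fits a fibronectin type III repeat of the region known to be spliced in tenascin C. It was included in 27.9%, 24.4% and 35.7% of the signal with FSH and FBS. In untreated libraries it was included in 16.0%, 16.8% and 38.5%, so the groups overlapped. Another 273-base exon, chr4:63982651-63982923, was included in 100% of the signal in each treated library and in 91.0%, 91.1% and 100% in untreated ones. A form without both exons was listed in untreated libraries 1 and 2 only, at 0.716 and 0.586 FPKM, and is not counted in the first shares. The form with both exons, at 1.38 and 1.22 FPKM in those 2 libraries, is not counted in the second shares, which are therefore slightly low there. The window at the upstream start, chr4:64046966-64047265 on the minus strand of GRCm38.p6, is shown because Tnc was called higher. Capitals mark 1 match each to GGGCGG, then the TATA box letters TATAAA, then CAGACA, the SMAD-binding element.

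Tnc: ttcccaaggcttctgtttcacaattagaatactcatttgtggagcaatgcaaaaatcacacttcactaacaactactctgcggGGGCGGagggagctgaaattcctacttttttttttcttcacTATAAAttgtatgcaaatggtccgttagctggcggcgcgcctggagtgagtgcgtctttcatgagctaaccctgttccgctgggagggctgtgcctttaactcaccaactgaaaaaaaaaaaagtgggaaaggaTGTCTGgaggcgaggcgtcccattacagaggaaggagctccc

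Fn1 encodes fibronectin, the main adhesive protein of early matrix. By end exons it was at 14.1, 20.6 and 20.7 FPKM with FSH and FBS and at 24.7, 35.3 and 9.76 in untreated cells. These values overlapped, with a log2 fold change of 0.13 (SE 0.51, limma adjusted p = 0.93). The sign was negative in 7 of 20 alternatives. The 270-base exon at chr1:71603660-71603929, which has the length and the place in order of the EIIIA (EDA) exon, was near 0, at 0% to 0.048% in 5 libraries and at 22.2% in FSH and FBS library 3. The form without it stood at 20.6, 19.9 and 15.7 FPKM with FSH and FBS and at 32.1, 30.7 and 21.3 in untreated cells. The form with it held 4.50 FPKM in FSH and FBS library 3. Untreated library 3 thus had more signal here than at its end exons (9.76), so the overlap above holds for end exon values only. The 273-base exon upstream at chr1:71613763-71614035, by the same criteria EIIIB (EDB), was included at 49.9%, 40.5% and 42.6% with FSH and FBS, at 49.2% and 26.8% in untreated libraries 1 and 2, and unlisted in untreated library 3. A single treated library therefore held nearly all of the signal for the first exon, and the shares of the second overlapped between groups.

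**Figure D3:**
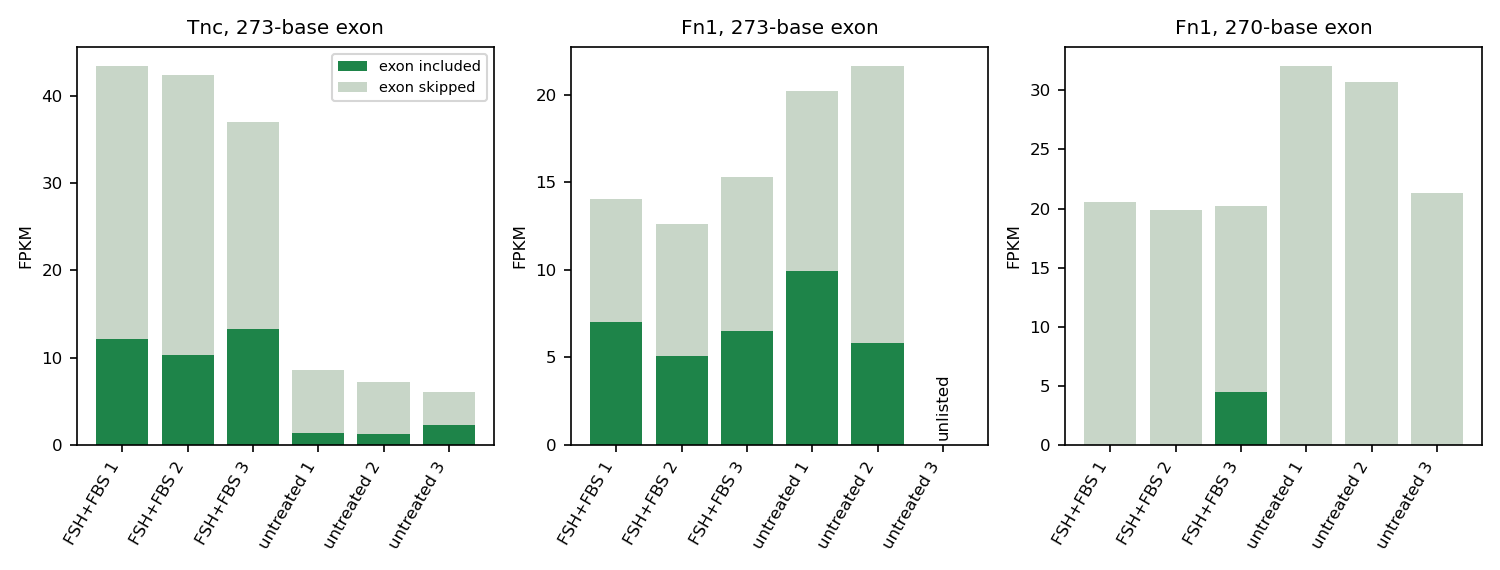
FPKM with and without each cassette exon in the 6 libraries, for the 273-base exon of Tnc at chr4:63984460-63984732 and for the 273-base and 270-base exons of Fn1. Bar height is the sum of both forms; Tnc bars are higher with FSH and FBS, and the 270-base Fn1 exon is visible in FSH and FBS library 3 alone.

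Thbs1, which encodes the anti-angiogenic and TGF-beta activating glycoprotein thrombospondin 1, had the highest FPKM of the matrix genes in untreated libraries 1 and 2, and Sparc was slightly above it in library 3. It was at 356.1, 353.9 and 115.9 FPKM in untreated cells and at 45.4, 43.7 and 15.8 with FSH and FBS. All treated libraries lay below all untreated ones, while library 3 was lowest in each group. The log2 fold change was -2.88 (SE 0.64) and did not pass (limma adjusted p = 0.065). Leaving out untreated library 3 took the log2 fold change to -3.68, and leaving out FSH and FBS library 3 took it to -2.16. As for collagen IV, either omission leaves 1 sample in a group, so only effect sizes are given.

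Smoc2 and Cnmd fell. Smoc2 encodes a secreted calcium-binding protein related to SPARC, and went from 50.9, 50.1 and 46.9 FPKM to 4.41, 4.51 and 2.07. Means were 48.7 ± 2.56 and 3.26 ± 1.69 FPKM (SD, n = 2), a log2 difference of -3.60 (SE 0.40, limma adjusted p = 0.0062). Cnmd encodes chondromodulin, a transmembrane precursor whose secreted part inhibits vessel growth in cartilage. It went from 60.1, 69.6 and 69.1 FPKM to 4.67, 3.30 and 0.101, with means of 67.0 ± 2.99 and 2.04 ± 2.75 FPKM (SD, n = 2) and a log2 difference of -4.86 (SE 0.64, limma adjusted p = 0.010). Treated library 3 was the lowest for both genes.

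Itih5 could not be tested, since it lacked a value in every treated library. It encodes a heavy chain of the inter-alpha-trypsin inhibitor family, proteins that bind hyaluronan. It was at 45.4, 45.4 and 20.5 FPKM in untreated libraries and unlisted in all 3 libraries with FSH and FBS. Of 1805 genes with at least 20 FPKM in each untreated library, 2 were unlisted in every treated one, or 0.111%. The other was Bmp2, named here after its values were seen. No event of another gene overlapped the Itih5 locus in any library.

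The promoter window of Cnmd is given as that of the tested member that fell most. That of Itih5 is given as the highest in untreated cells of the members unlisted in every treated library. That of Cnmd is chr14:79662134-79662433, minus strand, and that of Itih5 is chr2:10153293-10153592, plus strand, both in GRCm38.p6. Capitals mark CAGACA in the first and 3 matches to GGGCGG in the second.

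Cnmd: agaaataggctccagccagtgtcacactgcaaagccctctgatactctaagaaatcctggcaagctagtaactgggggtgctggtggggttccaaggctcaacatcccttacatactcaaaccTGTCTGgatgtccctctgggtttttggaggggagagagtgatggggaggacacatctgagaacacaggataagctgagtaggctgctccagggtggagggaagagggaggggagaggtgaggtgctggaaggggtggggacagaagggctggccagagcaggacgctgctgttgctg

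Itih5: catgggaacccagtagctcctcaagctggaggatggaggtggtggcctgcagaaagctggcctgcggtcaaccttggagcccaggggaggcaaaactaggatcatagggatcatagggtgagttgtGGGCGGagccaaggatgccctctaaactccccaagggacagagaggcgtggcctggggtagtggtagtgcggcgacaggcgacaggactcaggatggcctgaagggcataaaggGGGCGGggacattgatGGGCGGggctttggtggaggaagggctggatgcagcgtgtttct

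Sparc encodes osteonectin, a collagen-binding protein, and was high in both groups. It stood at 213.1, 212.8 and 218.2 FPKM against 169.0, 175.9 and 117.5. Treated libraries lay above untreated ones by a small margin, and the log2 fold change of 0.60 (SE 0.41) did not pass (limma adjusted p = 0.52).

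In the protease class the inhibitor Timp1 rose and its relative Timp2 lay lower. Timp1, a secreted inhibitor of most metalloproteinases, was at 297.5, 448.5 and 1342 FPKM with FSH and FBS and at 41.1, 49.4 and 67.2 in untreated cells. The log2 fold change was 3.66 (SE 0.63, limma adjusted p = 0.026), from 56.2 ± 15.5 to 857.7 ± 685.5 FPKM (SD, n = 2). Treated library 3 was several times above the other treated libraries, which makes the treated SD large. Timp1 was the matrix gene with the highest FPKM in each treated library. The call was lost by median of ratios (limma adjusted p = 0.11), with first exon sums only (0.077), with unlisted genes as 0 (0.056) and without untreated library 3 (0.090). Its log2 fold change was 2.74 without FSH and FBS library 3.

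The untreated library 2 value of Timp1 needed care. In that library the table joins Timp1 with Araf, the gene upstream on the same strand of the X chromosome, and 26.8 of its 49.4 FPKM came from first exons at or upstream of that neighbour. Its own first exon, chrX:20870166-20870324, stood at 22.5 FPKM. Without those exons the log2 fold change was 3.91 (limma adjusted p = 0.026). In FSH and FBS library 1 a start further upstream, chrX:20861646-20861956, held 279.3 of 297.5 FPKM and was unlisted elsewhere. The RefSeq window at its usual start, chrX:20869916-20870215 on the plus strand of GRCm38.p6, is shown as that of the most abundant matrix gene of treated cells. Capitals mark 1 match to CCAAT, then to the hypoxia element core ACGTG, then to GGGCGG.

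Timp1: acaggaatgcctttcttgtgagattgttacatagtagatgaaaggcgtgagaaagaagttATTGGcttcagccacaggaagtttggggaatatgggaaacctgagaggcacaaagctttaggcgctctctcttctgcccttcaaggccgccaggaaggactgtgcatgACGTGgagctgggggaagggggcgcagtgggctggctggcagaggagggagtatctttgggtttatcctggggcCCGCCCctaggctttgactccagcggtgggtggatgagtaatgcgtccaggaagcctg

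Timp2, which takes part in activating pro-MMP2 besides inhibiting it, was at 5.94, 5.54 and 8.22 FPKM against 18.8, 18.8 and 13.8. The groups did not overlap, and the log2 fold change of -1.12 (SE 0.37) did not pass (limma adjusted p = 0.20). The ratio of Timp1 to Timp2 was 50.1, 80.9 and 163.3 with FSH and FBS and 2.19, 2.63 and 4.86 in untreated cells. Timp3, the inhibitor that binds to matrix, was low, at 2.13, 2.04 and 1.19 against 0.794, 0.461 and 0.585 FPKM (log2 fold change 0.70, SE 0.39, limma adjusted p = 0.42).

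The class holds 4 metalloproteinase genes, of which Mmp2, Mmp9 and Mmp19 stayed under 5 FPKM in every library that listed them. Mmp14, the membrane-bound enzyme that activates pro-MMP2, was at 40.98, 27.7 and 102.5 FPKM against 31.8, 55.3 and 60.3, with overlap (log2 fold change 0.21, SE 0.53, limma adjusted p = 0.88). Mmp19 was at 3.64, 3.08 and 3.93 against 0.830, 0.411 and 0.641 FPKM. It lay higher in all treated libraries and did not pass (log2 fold change 1.51, SE 0.37, limma adjusted p = 0.087). Tmem198b overlaps Mmp19 on the opposite strand with end exons of up to 7.61 FPKM, and Rtraf likewise overlaps Nid2, the head-to-head collagen IV genes each other, and the gene noted above Tnc. No source used here says that reads were assigned by strand, so reads of such partners may not be told apart and these levels are uncertain to that extent. Mmp2, gelatinase A, was at 3.88, 3.53 and 4.28 FPKM with FSH and FBS and at 0.818 and 0.609 in 2 untreated libraries. It was outside the main test, and with its unlisted value set to 0 it did not pass (log2 fold change 1.93, SE 0.55, limma adjusted p = 0.17). Mmp9, gelatinase B, showed the reverse listing, at 0.837, 1.48 and 0.109 FPKM in untreated libraries and unlisted after FSH and FBS.

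Promoter windows could be matched for 24 of the 35 genes. They were rich in G and C, with a median of 63.5% against 52.7% over all 27025 windows (1 per gene). For matrix genes the window nearest the largest listed first exon was taken. For all genes the first window was taken, whether or not the gene was listed here, so the sets were chosen differently. The Col1a2 window lay 29286 bases and the Mmp14 window 1209 bases from that exon, and Lama5 had no listed first exon. GGGCGG occurred in 18 of 24, or 75%, against 35.9% of all windows. CCAAT occurred in 9 of 24 (37.5%, against 37.9%), CAGACA in 7 (29.2%, against 21.0%), and ACGTG in 4 (16.7%, against 19.7%). TATAAA was found in 2 (8.33%, against 14.2%), TGANTCA, the AP-1 site, in 1 (4.17%, against 7.93%), and TGACGTCA, the cAMP response element, in 0 of 24, against 1.88%. Matches were counted on both strands, describe letters only, and bear on no factor.

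Other genes of the matrix pathway were taken from 4 lists. Of 22 tested genes for making collagen none was called by limma. At an unadjusted p under 0.05, 5 were higher and 1 lower, where 12.1% and 4.31% of all genes were. In 11 all treated libraries lay above all untreated ones and in 1 below, against the 29.4% and 9.54% of all genes, and the median log2 fold change was 0.60. The smallest adjusted p values were those of Plod1, a lysyl hydroxylase, at 20.3, 17.5 and 20.04 against 7.46, 7.69 and 6.93 FPKM (log2 fold change 1.31, limma adjusted p = 0.10), and of P3h1, a prolyl 3-hydroxylase, at 49.5, 49.5 and 52.6 against 20.8, 23.1 and 19.7 FPKM (1.25, limma adjusted p = 0.11). With last exon sums only Plod1 stood at -0.51.

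Of 20 tested matrix receptors 3 were called higher and none lower by limma (6 and 1 at an unadjusted p under 0.05). Over all genes 1.68% were called higher and 0.687% lower (12.1% and 4.31% at an unadjusted p under 0.05). Sdc1, the heparan sulfate proteoglycan syndecan 1, rose from 74.7, 72.7 and 61.8 to 962.4, 916.1 and 1081 FPKM (log2 fold change 3.88, SE 0.42, limma adjusted p = 0.0062). Bcam, a laminin alpha 5 receptor, rose from 0.083, 1.21 and 0.691 to 5.69, 5.80 and 9.91 FPKM, and Sdc3, syndecan 3, from 10.5, 10.2 and 8.85 to 37.4, 38.0 and 35.1 FPKM (limma adjusted p = 0.026 and 0.034). The Sdc1 call was lost without untreated library 3 (limma adjusted p = 0.11), and those of Bcam and Sdc3 without it, under all 3 rescalings and with unlisted genes as 0, and that of Sdc3 also with first exon sums only (limma adjusted p = 0.077). Among the integrin genes the smallest adjusted p was 0.11 by limma, for Itgb3 and Itga5.

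Of 11 tested structural genes outside the classes above 2 were called lower and none higher by limma (3 and 1 at an unadjusted p under 0.05). For this list and the proteases below, the shares over all genes are again 0.687% lower and 1.68% higher (4.31% and 12.1% unadjusted). Smoc1, the paralog of Smoc2, fell from 25.1, 26.2 and 18.5 to 1.64, 1.08 and 1.84 FPKM (log2 fold change -3.14, SE 0.37, limma adjusted p = 0.0086), a call that held in all 19 alternatives that tested it. Both SMOC genes were thus called lower. Col27a1, a fibrillar collagen of cartilage, fell from 5.69, 5.81 and 6.77 to 0.896, 0.681 and 0.573 FPKM (log2 fold change -2.11, limma adjusted p = 0.028), and its call was lost in 5 of 19 alternatives. Of 19 other proteases and inhibitors, 1 was called higher and none lower by limma (6 and 1 at an unadjusted p under 0.05). That gene was Ctsk, cathepsin K, a collagen-cutting cysteine protease, at 13.1, 14.4 and 16.1 against 3.48, 3.23 and 2.74 FPKM (log2 fold change 1.98, limma adjusted p = 0.031), and its call was lost in 4 of 20 alternatives.

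**Figure D4:**
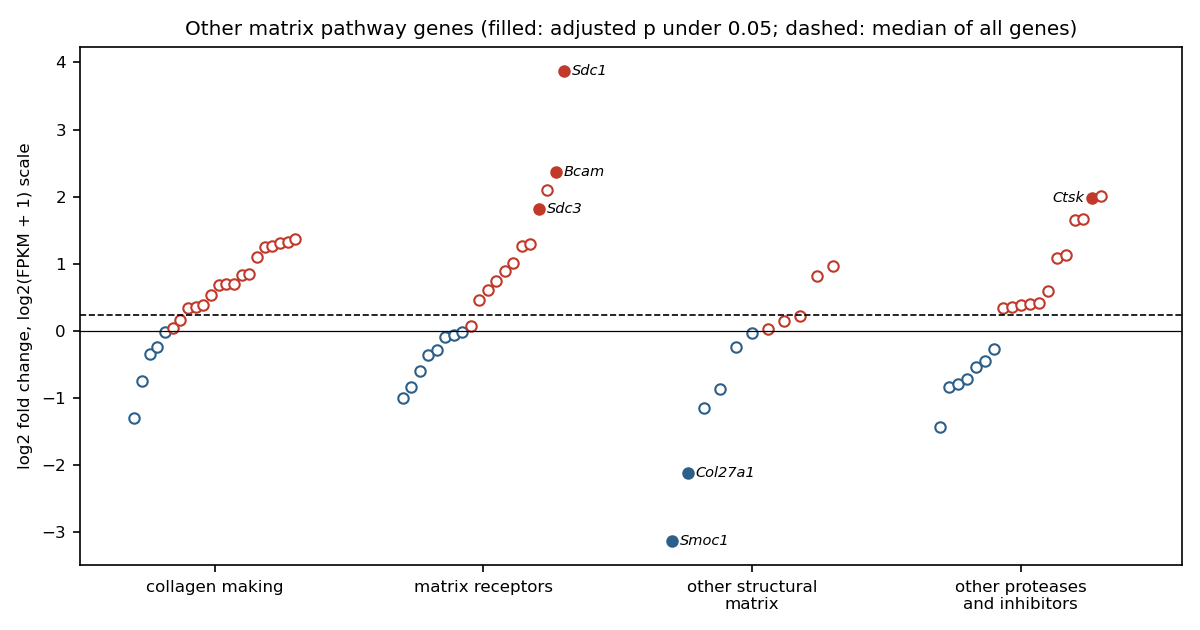
Log2 fold change of the tested genes of 4 other matrix lists, each point a gene, filled where the adjusted p is under 0.05. The dashed line is the median of all genes, 0.24; Sdc1, Bcam, Sdc3 and Ctsk are filled above it, Smoc1 and Col27a1 below.

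Markers of other cells moved with the groups in part. Of 8 ovarian surface markers, Krt8 (limma adjusted p = 0.021) was at 103.8 to 167.3 FPKM against 23.8 to 26.0 and Krt18 (limma adjusted p = 0.020) at 41.4 to 91.2 against 5.14 to 9.49, while Msln, Cdh1 and Muc16 were unlisted in every library and Upk3b was listed once, at 0.60 FPKM. Acta2, the smooth muscle actin gene of the theca and stroma list, was lower (limma adjusted p = 0.030), at 13.6 to 17.5 against 58.3 to 67.7 FPKM, and Dcn, a stromal proteoglycan, was listed in untreated cells only, at 2.99 to 7.86 FPKM. The Krt8 call was lost in 3 of 20 alternatives (median of ratios, first exon sums only, without untreated library 3), that of Krt18 in the first pair of these, and that of Acta2 in the last pair. Endothelial sums were 2.58 to 3.37 FPKM with FSH and FBS and at most 0.454 in untreated cells, with 1 or 2 of 10 markers listed where any was. Cd79a, a leukocyte marker whose tables hold exons of a neighbour, was at 198.7, 200.2 and 332.5 FPKM with FSH and FBS. In untreated libraries 1 and 3 it was at 443.3 and 459.7 FPKM, and it was unlisted in untreated library 2. Leukocyte sums without Cd79a were 3.01 to 7.71 against 9.18 to 12.7 FPKM. In bulk RNA a smaller share of cells of a type and less RNA per cell cannot be told apart, and the part of these markers in the matrix results was not tested.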

How the data were processed

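RNA tables of 6 libraries, 3 per group, were used, and small-RNA libraries are outside this account. The authors deposited FPKM values per transcript event (start, end, exon, intron) with positions, as seen per the file headers. HISAT2 2.0.1 is named per the submitters' processing notes. The assembler, filters, annotation and build are not given in the sources used here, and positions are as in the files. For each gene, first exon FPKM and last exon FPKM were summed on its main strand and the larger sum kept. Symbols matched 13281 of 13318 gene IDs. The test needed a gene to be listed in each of 6 libraries and to average 1 FPKM or more. After libraries 1 and 2 of a group were averaged, limma 3.58.1 in R 4.3.3 was run (intensity trend, pseudocount 1, two-sided, Benjamini-Hochberg over 9022 genes, threshold 0.05), and was tested on simulated data. No label states that libraries are separate cultures or animals, and p-values then cover only spread between libraries, possibly technical. Members, lists, motifs and tests were chosen with earlier results of these data known. Genes named were members that were called, unlisted somewhere or largest in their class, and called or smallest-p genes of other lists; remaining members and markers were named to account for the lists. Protein sequences were not used here. Alternatives covered scaling, pseudocount, filters, exon sums, replicate handling, each library left out and, added after seeing the data, Timp1 without its neighbour and the gene filter redone for each library left out.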

Additional observations from a re-analysis of the deposited data

How the results depend on the processing

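Of the 6 calls, those on Col18a1, Col6a3, Smoc2 and Cnmd held in every one of 20 alternatives that tested them (18 each for Col18a1 and Col6a3). With 6 libraries as separate replicates 973 genes were higher and 350 lower, and 8 and 5 of the matrix genes; the added calls were Col4a1, Col4a2, Col6a1, Mmp19, Thbs1, Col5a2 and Timp2. Scaling to equal sums left 59 genes higher, quantile normalization 94, and median of ratios 49 higher and 41 lower, with 2 matrix genes higher; these took the median of all genes from 0.24 to between -0.014 and 0.0060. First exon sums only gave 42 higher and 21 lower, 0 matrix genes higher (4 at an unadjusted p under 0.05, by limma) and a matrix median of 0.21 over 17 genes; Col18a1 and Col6a3 lacked a listed first exon in some libraries. With unlisted values as 0, Nid1 stood at 0.18 (limma adjusted p = 0.95); Itih5 has no measured value in treated libraries, so its fit is not given. A minimum of 5 FPKM also gave a median of 0.21, over 19 genes. Leaving out 1 library, over the same 9022 genes, gave 60 to 272 genes higher and 41 to 112 lower, 2 to 6 matrix genes higher and 2 to 3 lower, and a matrix median of 0.46 to 0.64. The low counts of higher genes came without untreated library 3 and the high ones without FSH and FBS library 3. With the gene filter redone on the other 5 libraries, an alternative chosen after seeing the data, these 2 omissions gave 42 higher and 33 lower, and 253 and 131, with the same counts of matrix genes higher (2 and 6) and lower (3 and 3) and the 4 calls above held. An arm left with 1 sample is assumed to vary like the other.

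The replicate block gave 1040 higher and 407 lower with libraries 1 and 2 averaged, and 1516 and 584 with 6 libraries, with 8 and 5 matrix genes in both. The deviations of averaged samples with one number correlated at r = 0.51 across 9022 genes, but 2 pairs do not establish pairing, and libraries share only a number.

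Directions turned for genes that did not pass. Fn1 was at -0.17 with 6 libraries, with and without the replicate block, -0.15 by equal sums, -0.13 by median of ratios and -0.22 by quantiles; Lamb1 was at -0.088, -0.067 and -0.11, and Mmp14 at -0.082, -0.059 and -0.25 in the same 3 rescalings. With last exon sums Plod1 was at -0.51 and Lamb2 at 0.079. Without FSH and FBS library 2, Lamb1 was at -0.049 and Fn1 at -0.012; without FSH and FBS library 3, Mmp14 was at -0.56, Agrn at 0.048 and Lamb2 at 0.10; without untreated library 1, Lamb2 was at 0.039; without untreated library 3, Lamc1 was at -0.033, Lamb1 at -0.28 and Fn1 at -0.64. Over the libraries left out in turn, values ran from -0.64 to 0.26 for Fn1, -0.28 to 0.37 for Lamb1, -0.56 to 0.44 for Mmp14, -0.94 to 0.048 for Agrn and -0.24 to 0.10 for Lamb2. The cause was not tested. The depth is unknown, so what it limits cannot be given.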
